A study of Homo sapiens with 9 samples.

Results

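The genes that carry oxygen sensing from the HIF alpha subunits to their hydroxylases, ubiquitin ligase and coactivators were followed in 786-O cells in which ARNT or BMAL1 had been depleted. They were 10 rows of the count table, chosen by gene symbol from 38021 genes: HIF1A, EPAS1, EGLN1, EGLN2, EGLN3, HIF1AN, VHL, CITED2, EP300 and CREBBP. 786-O is an established human line from a clear cell renal cell carcinoma (ccRCC) that lacks functional VHL and accumulates HIF2α, the product of EPAS1. All cells, controls included, carried a lentiviral PLKO.1 short hairpin RNA (shRNA) and were selected and kept in puromycin: shControl was a control hairpin, shARNT targeted ARNT, the common partner of HIF alpha subunits, and shBMAL1 targeted the clock factor BMAL1 (listed as ARNTL). The genotype was labelled WT in all groups, no hypoxia treatment was named, and there were 3 libraries per group, called biological replicates in the labels without naming separate infections, so p values measure the spread between these libraries. No second hairpin per target was analysed here.

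HIF alpha subunits are made continuously and are controlled mainly through protein stability. In the presence of oxygen, the prolyl hydroxylases (PHD enzymes, encoded by EGLN genes) modify them, VHL then binds the modified subunit and its ubiquitin ligase marks it for degradation, while the asparaginyl hydroxylase FIH (HIF1AN) blocks their contact with the coactivators p300 and CBP. In cells without functional VHL, as in most ccRCC, the hydroxylases are still made but the step that destroys the subunits is lost, and HIF target genes stay on, among them EGLN3 and CITED2, which themselves restrain the pathway.

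The promoters of the alpha subunits, the PHD genes and CITED2 are shown first because HIF dimers bind at hypoxia response elements with the core ACGTG or GCGTG, and BMAL1 with CLOCK binds E-boxes with the core CACGTG. RefSeq promoter windows (GRCh38.p14, from 250 bases before to 50 bases after a transcription start) were found for 9 of the 10 members, all but VHL. All of these cores were searched for on both strands, and the E-box core contains ACGTG on each strand. Printed 5′ to 3′ on the gene's own strand, with the match in capitals and 12 bases on each side, matches in the alpha subunit, EGLN1, EGLN2 and CITED2 windows read:
HIF1A (chr14:61695297-61695325, plus strand): tggctgagagcgGCGTGggctggggtggg
EPAS1 (chr2:46297278-46297306, plus strand): gggcctgccggcGCGTGcccgcccacaca
EGLN1 (chr1:231422284-231422312, minus strand): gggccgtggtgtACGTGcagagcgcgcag
EGLN2 (chr19:40799130-40799159, plus strand): gcggggcgcggtCACGTGcccaccgggcga
CITED2 (chr6:139374784-139374813, minus strand): cagcctctgcagCACGTGccgcgggcggcg

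For EGLN3, which had the largest fold change of the 9 tested members under shARNT and in the direct comparison, the window held none of these motifs. Its 100 bases round the start are given with the first 50 transcribed bases in capitals:
EGLN3 (chr14:33951025-33951124, minus strand): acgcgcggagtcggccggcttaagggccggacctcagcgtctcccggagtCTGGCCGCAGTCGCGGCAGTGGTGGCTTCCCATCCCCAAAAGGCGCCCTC

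The match in EGLN1 began 13 bases before the start, that in EGLN2 49 bases before it and that in CITED2 153 bases before it. HIF1A and EGLN2 each had a second window, which held no match. Other CITED2 windows and 1 of 2 CREBBP windows held further GCGTG matches, and those of HIF1AN and EP300 held none. Over all 35116 windows, 48.4% held ACGTG or GCGTG, 21.4% held ACGTG, 36.5% held GCGTG and 7.26% held CACGTG. A match is a string of letters and not a measured binding site.

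Library totals were 33793045 to 35444735 reads, and pairs of libraries within a group differed by more than sampling noise, so no library was counted as a copy of another. ARNT gave 1199 to 1239 normalised read counts (counts divided by size factors over the 9 libraries) in shARNT against 2188 to 2551 in shControl, and ARNTL gave 292 to 345 in shBMAL1 against 735 to 797. Each target was thus lowest in the libraries that carried its hairpin. Each was also slightly lower than in shControl in the other knockdown. ARNT differed by -0.23 (log2) under shBMAL1 (DESeq2 adjusted p 0.0187), a call lost without shControl replicate 2 (DESeq2 adjusted p 0.162) or shBMAL1 replicate 2 (DESeq2 adjusted p 0.109), and ARNTL by -0.26 under shARNT (DESeq2 adjusted p 0.0294), lost without shControl replicate 2 (DESeq2 adjusted p 0.15) or shARNT replicate 3 (DESeq2 adjusted p 0.22). All 8 markers of the renal carcinoma line were detected, PAX8 at 6884 to 10477, but their levels were not equal between groups. Under shARNT 2 were lower and 2 higher (50% called, where 35.4% of all tested genes were), and under shBMAL1 3 were lower and 3 higher (75% called, where 36.8% of all tested genes were). CDH6 rose by 1.01 and 1.72 on the log2 scale, CA9, a HIF target gene, was at -2.85 and 1.05, and under shBMAL1 PAX8 was at -0.49 and PAX2 at 0.43. The part of these shifts in the results of the members was not tested. Among endothelial markers CDH5 was at 0 in every library and PECAM1, VWF and KDR did not exceed 8.9. Among leukocyte markers CD3E was at 0, PTPRC did not exceed 2.9, and CD68 gave 5325 to 7882, with a log2 difference of -0.31 under shBMAL1 (DESeq2 adjusted p 0.00152).

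The alpha subunits did not move together. HIF1A (chr14:62162231-62214976 on GRCh37, plus strand, protein-coding), which encodes HIF1α, gave 2594, 2708 and 2499 normalised read counts in shControl, 3476, 3453 and 3451 in shARNT and 3989, 4037 and 3921 in shBMAL1. The 3 groups did not overlap, and every shBMAL1 library lay above every shARNT library. HIF1A rose by 0.42 on the log2 scale under shARNT (SE 0.06, DESeq2 adjusted p 2e-11), by 0.61 under shBMAL1 (SE 0.07, DESeq2 adjusted p 2.36e-18), and was 0.20 higher in shBMAL1 than in shARNT (SE 0.06, DESeq2 adjusted p 0.0057). These are levels of RNA from whole cultures, in which fewer cells of a type and less RNA per cell cannot be told apart.

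The antisense transcript HIF1A-AS1 overlaps the start of HIF1A on the opposite strand, and nothing states whether strand was used in counting, so reads in the shared stretch cannot be assigned with certainty. It gave 216, 244 and 233 normalised read counts in shControl, 325, 279 and 234 in shARNT and 303, 356 and 305 in shBMAL1. The shBMAL1 libraries lay above the controls, while shARNT overlapped both. Its log2 fold change was 0.47 under shBMAL1 (DESeq2 adjusted p 0.00519) and 0.28 under shARNT (DESeq2 adjusted p 0.178). In every library HIF1A had many more reads than its antisense partner.

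EPAS1 (chr2:46524546-46613836 on GRCh37, plus strand, protein-coding), the alpha subunit on which ccRCC growth depends, gave 11766, 10799 and 10764 normalised read counts in shControl. The shARNT libraries gave 9920, 9591 and 8767, and the shBMAL1 libraries 11325, 10241 and 10401. All shARNT libraries were below all others, and shBMAL1 overlapped the controls. EPAS1 fell by 0.23 on the log2 scale under shARNT (SE 0.06, DESeq2 adjusted p 0.000563). Under shBMAL1 the difference was -0.06, with a 95% interval of -0.19 to 0.07 (DESeq2 adjusted p 0.546). The direct comparison of shBMAL1 with shARNT gave 0.18 (DESeq2 adjusted p 0.0395), and this call was lost without shARNT replicate 3 (0.12, DESeq2 adjusted p 0.251) or without shBMAL1 replicate 1 (0.13, DESeq2 adjusted p 0.133).

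Set against each other within a library, and scaled by transcript length, the balance between the alpha subunit RNAs shifted by a similar amount in both knockdowns. These shares are of RNA, and the libraries hold no measure of HIF1α or HIF2α protein. EPAS1 made up 76.6% ± 1.17 of the EPAS1 plus HIF1A reads per kilobase in the 3 control libraries, 67.6% ± 1.34 with shARNT and 67.2% ± 1.25 with shBMAL1 (mean ± SD). Both knockdown groups lay wholly below the controls, by 9.01 and 9.40 percentage points, each with a two-sided exact permutation p of 0.1, the smallest that 3 against 3 libraries allow. The 2 knockdowns differed by -0.39 points and overlapped (exact permutation p 0.7). In shARNT both members of the ratio moved, while in shBMAL1 only HIF1A passed the test.

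**Figure D1:**
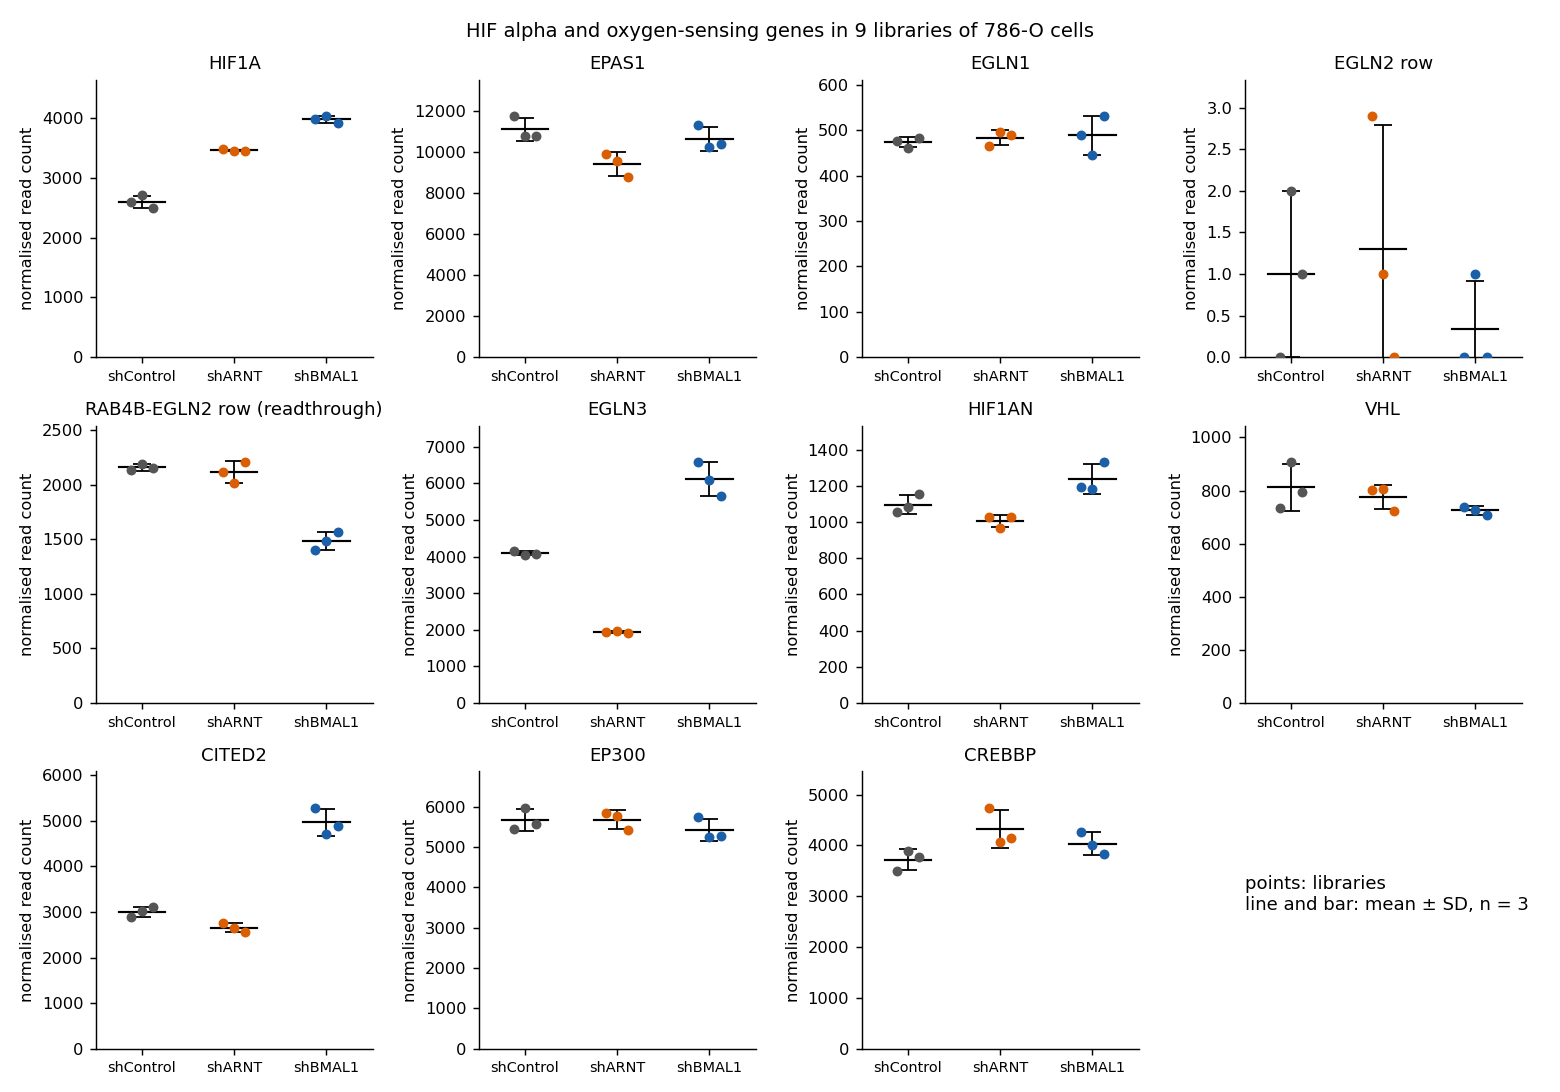
Normalised read counts (vertical axes, each from 0) of the 10 members and of the RAB4B-EGLN2 row in the 3 libraries of shControl, shARNT and shBMAL1; points are libraries, lines and bars the mean ± SD (n = 3). EGLN3 and CITED2 sit below the controls in shARNT and above them in shBMAL1, HIF1A is above them in both, and the EGLN2 row is at 0 to 2.9.

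Of the PHD enzymes, EGLN3 (PHD3; chr14:34393433-34420280 on GRCh37, minus strand, protein-coding) had the widest range. It gave 4162, 4049 and 4067 normalised read counts in shControl, 1940, 1955 and 1917 in shARNT and 6589, 6095 and 5660 in shBMAL1. The 3 groups were far apart, with shARNT lowest and shBMAL1 highest. Under shARNT it fell by 1.08 on the log2 scale (SE 0.06, DESeq2 adjusted p 9.99e-79), a level 2.11-fold lower. Under shBMAL1 it rose by 0.58 (SE 0.07, DESeq2 adjusted p 1.21e-14), a level 1.49-fold higher. The direct comparison gave 1.66 (SE 0.07, DESeq2 adjusted p 1.9e-111). No alternative setting that was tried changed its direction, and the rise under shBMAL1 was not called where at least a 1.5-fold change was required.

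EGLN1 (PHD2; chr1:231499502-231558033 on GRCh37, minus strand, protein-coding), the main HIF prolyl hydroxylase in oxygenated cells, did not follow EGLN3. It gave 477, 461 and 482 normalised read counts in shControl, 465, 496 and 490.0 in shARNT and 489, 445 and 532 in shBMAL1, and all groups overlapped. The log2 difference was 0.03 under shARNT, with a 95% interval of -0.17 to 0.24 (DESeq2 adjusted p 0.859). Under shBMAL1 it was 0.05, with an interval of -0.18 to 0.27 (DESeq2 adjusted p 0.826). A change the size of that in EGLN3 lies outside both intervals.

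EGLN2 (PHD1; chr19:41305096-41314339 on GRCh37, plus strand, protein-coding) could not be measured from its own row, which held at most 2.9 normalised read counts in any library and was not tested in any comparison because of its low counts. The reads of this locus were listed instead under RAB4B-EGLN2, a readthrough transcript that spans EGLN2 and the upstream gene RAB4B on the same strand, and the RAB4B row was at 0 throughout. Reads of RAB4B and EGLN2 therefore cannot be told apart here. A second readthrough row of the locus, MIA-RAB4B, held 136 to 225 normalised read counts and was not called in any comparison. The RAB4B-EGLN2 row (chr19:41284176-41314323 on GRCh37) gave 2131, 2191 and 2153 normalised read counts in shControl, 2117, 2012 and 2209 in shARNT and 1403, 1484 and 1565 in shBMAL1. The shBMAL1 libraries were lower than all others, and the other groups overlapped. Under shBMAL1 this row fell by 0.54 (log2; SE 0.08, DESeq2 adjusted p 2.52e-11) and its difference under shARNT was -0.03, with a 95% interval of -0.15 to 0.10 (DESeq2 adjusted p 0.803).

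The shares of the rows standing for the PHD genes thus differed between all groups. With the RAB4B-EGLN2 row standing for the EGLN2 locus, EGLN3 made up 63.0% ± 0.571 of the reads per kilobase in shControl, 45.1% ± 1.23 with shARNT and 77.7% ± 2.24 with shBMAL1 (mean ± SD of 3). The RAB4B-EGLN2 row made up 32.4%, 47.9% and 18.5%, and EGLN1 4.55%, 7.02% and 3.89%. Under shARNT neither of these 2 rows was called (log2 -0.03 and 0.03), so their larger shares there followed from the lower EGLN3 count. No group overlapped another in the EGLN3 share, each exact permutation p being 0.1, the smallest possible. With the near-empty EGLN2 row instead, the EGLN3 share was 93.2% ± 0.137, 86.5% ± 0.336 and 95.2% ± 0.654, in the same order but with smaller differences.

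**Figure D2:**
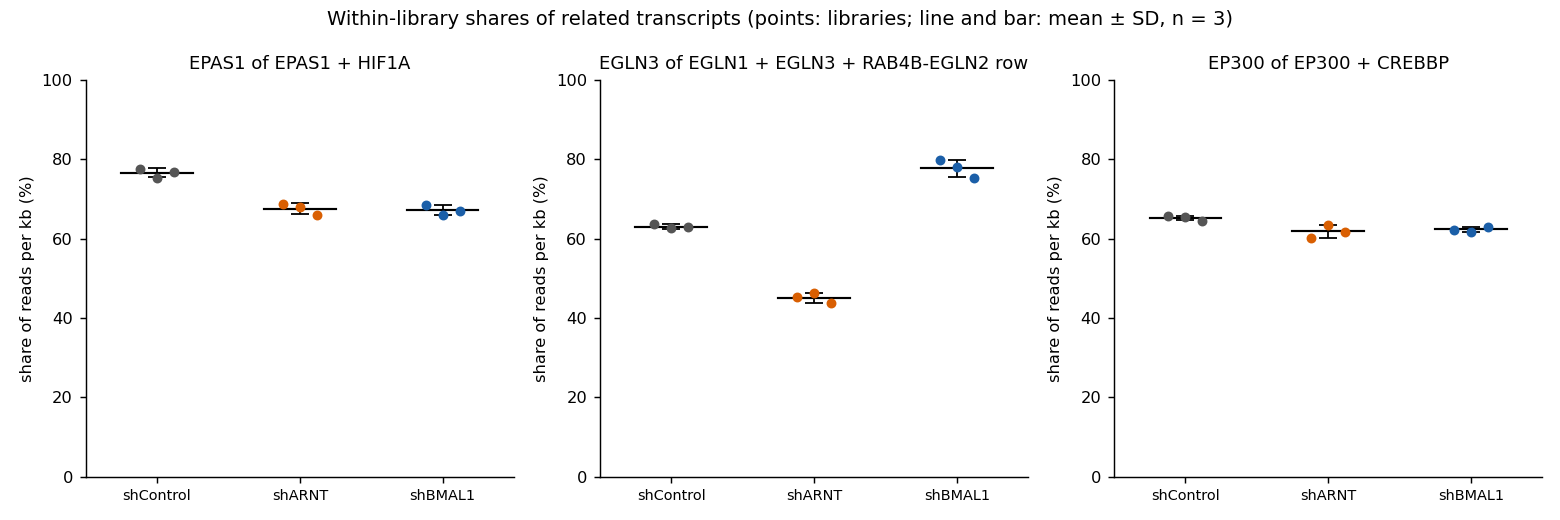
Share of length-scaled reads (vertical axes, percent, 0 to 100) taken by EPAS1 among the alpha subunits, by EGLN3 among the PHD rows with RAB4B-EGLN2, and by EP300 among the coactivators, in each library; lines and bars are the mean ± SD (n = 3). The EPAS1 share is lower in both knockdowns, while the EGLN3 share is 45.1% in shARNT and 77.7% in shBMAL1 against 63.0% in shControl.

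HIF1AN (chr10:102295700-102319755 on GRCh37, plus strand, protein-coding), which encodes FIH, showed small differences. It gave 1052, 1082 and 1153 normalised read counts in shControl, 1027, 965 and 1025 in shARNT and 1193, 1183 and 1333 in shBMAL1. The groups did not overlap, with shARNT lowest and shBMAL1 highest, but neither knockdown passed the test against control. The log2 differences were -0.12 under shARNT, with a 95% interval of -0.28 to 0.04 (DESeq2 adjusted p 0.272), and 0.17 under shBMAL1, with -0.002 to 0.35 (DESeq2 adjusted p 0.133). The second passed the threshold when genes with low counts were removed first (0.18, DESeq2 adjusted p 0.0945) or when all 9 libraries entered one fit (0.17, DESeq2 adjusted p 0.0857). HIF1AN was 0.30 higher in shBMAL1 than in shARNT (SE 0.09, DESeq2 adjusted p 0.00392).

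VHL (chr3:10183462-10195351 on GRCh37, plus strand, protein-coding), the substrate-binding subunit of the ligase, was transcribed in all libraries although its function is lost in this line. It gave 736, 909 and 795 normalised read counts in shControl, 801, 805 and 724 in shARNT and 739, 729 and 708 in shBMAL1, with overlap between all groups. The log2 difference was -0.06 under shARNT, with a 95% interval of -0.26 to 0.13 (DESeq2 adjusted p 0.701). Under shBMAL1 it was -0.17, with -0.37 to 0.04 (DESeq2 adjusted p 0.234). The RNA level does not show whether the protein is made or works.

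CITED2 (chr6:139692944-139695785 on GRCh37, minus strand, protein-coding) encodes a small protein that competes with HIF alpha subunits for p300 and CBP. It gave 2888, 3026 and 3101 normalised read counts in shControl, 2758, 2653 and 2571 in shARNT and 5294, 4710.5 and 4895 in shBMAL1. All shBMAL1 libraries were far above the others, and all shARNT libraries were just below the controls. CITED2 rose by 0.72 in log2 units under shBMAL1 (SE 0.07, DESeq2 adjusted p 9.65e-23), a level 1.65-fold higher, and the direct comparison gave 0.90 (SE 0.07, DESeq2 adjusted p 4e-35). Under shARNT it fell by 0.17 (SE 0.06, DESeq2 adjusted p 0.0182). That smaller call was lost without shControl replicate 3 (-0.15, DESeq2 adjusted p 0.105) and without shARNT replicate 3 (-0.15, DESeq2 adjusted p 0.122).

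The coactivators are large acetyltransferases that bind many transcription factors besides HIF. EP300 (p300; chr22:41488596-41576081 on GRCh37, plus strand, protein-coding) gave 5442, 5978 and 5580 normalised read counts in shControl, 5852, 5758 and 5417 in shARNT and 5736, 5256 and 5278 in shBMAL1, and all groups overlapped. Its log2 difference was 0.01 under shARNT, with a 95% interval of -0.11 to 0.12 (DESeq2 adjusted p 0.961), and -0.07 under shBMAL1, with -0.20 to 0.07 (DESeq2 adjusted p 0.532). The antisense row EP300-AS1 held at most 36.3 normalised read counts.

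CREBBP (CBP; chr16:3775055-3930714 on GRCh37, minus strand, protein-coding) gave 3502, 3893 and 3768 normalised read counts in shControl, 4744, 4063 and 4138 in shARNT and 4272, 3999 and 3821 in shBMAL1. The shARNT libraries were above all controls, 1 of them clearly so, and shBMAL1 overlapped both groups. CREBBP rose by 0.22 on the log2 scale under shARNT (SE 0.07, DESeq2 adjusted p 0.00812), a call lost without shARNT replicate 1 (0.14, DESeq2 adjusted p 0.117). Under shBMAL1 the difference was 0.11, with a 95% interval of -0.03 to 0.26 (DESeq2 adjusted p 0.252), and it passed the threshold after correction for GC content (0.16, DESeq2 adjusted p 0.0472). EP300 made up 65.2% ± 0.569 of the EP300 plus CREBBP reads per kilobase in shControl, 61.8% ± 1.64 with shARNT and 62.3% ± 0.586 with shBMAL1 (mean ± SD of 3), both below all controls (exact permutation p 0.1, the smallest possible).

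**Figure D3:**
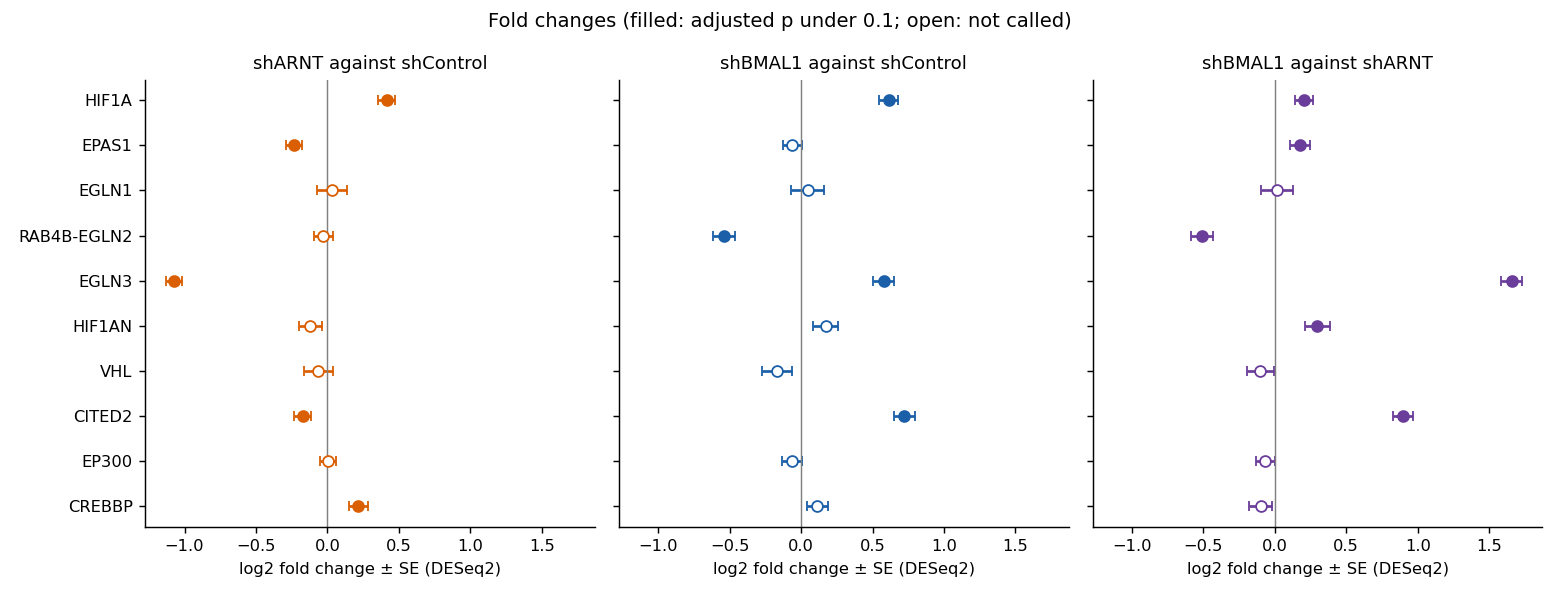
Log2 fold changes (horizontal axes) with their SE for 9 tested members and the RAB4B-EGLN2 row in the 3 comparisons; filled points have a DESeq2 adjusted p under 0.1. EGLN3 lies at -1.08 under shARNT and 0.58 under shBMAL1, CITED2 at -0.17 and 0.72, and HIF1A is positive in all 3 comparisons.

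Counted together, 5 of the 9 tested members passed the test under shARNT, where 35.4% of all tested genes did. EPAS1, EGLN3 and CITED2 were lower (19% of all tested genes were) and HIF1A and CREBBP higher (16.5%), and the median member log2 fold change was -0.06 against 0.003 for all tested genes. Under shBMAL1, 3 of 9 passed, with a background of 36.8%. These were HIF1A, EGLN3 and CITED2, all higher (17.4% of all tested genes), with a median of 0.11 against 0.02. In the direct comparison 5 of 9 passed, with a background of 35.3%, and HIF1A, EPAS1, EGLN3, HIF1AN and CITED2 were all higher in shBMAL1 (17.3% of all tested genes were, and 18% were lower). The 3 comparisons share libraries, so these counts are not independent of one another, and the share under shBMAL1 was close to the background.

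Compared per kilobase of canonical transcript, the order of the members changed between groups. In shControl, EPAS1 was highest at 2155 ± 110 normalised reads per kilobase, followed by EGLN3 at 1512 ± 22.4, CITED2 at 1262 ± 45.5, HIF1A at 659 ± 26.5 and EP300 at 645 ± 31.7 (SD, n = 3). HIF1A and EP300 overlapped, and the others named did not. CREBBP at 345 ± 18.5, VHL at 184 ± 19.9, EGLN1 at 109 ± 2.57 and HIF1AN at 84.8 ± 4.02 followed without overlap, the last one scaled by a transcript of 12.9 kilobases.

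In shARNT, EGLN3 was at 716 ± 7.05 reads per kilobase, below HIF1A at 877 ± 3.49 and CITED2 at 1117 ± 39.2, none of them overlapping. In shBMAL1, EGLN3 at 2260 ± 172, CITED2 at 2085 ± 125 and EPAS1 at 2067 ± 113 overlapped in range over the libraries. EGLN3 was the highest of these genes within each of the 3 libraries, while the order of CITED2 and EPAS1 differed between libraries. HIF1A reached 1009 ± 14.8 there.

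The ligase around VHL was followed with 15 further genes, the elongins, cullin 2, RBX1, the NEDD8 pathway and ubiquitin-conjugating enzymes, all of which were tested. Under shARNT 3 were called (20%, where 35.4% of all tested genes were), and all 3 were higher: UBE2D3 (0.24, DESeq2 adjusted p 0.00274) and UBE2D1 (0.22, DESeq2 adjusted p 0.0434), which encode ubiquitin-conjugating enzymes, and TCEB1 (0.23, DESeq2 adjusted p 0.0234), which encodes elongin C. Under shBMAL1 3 were also called (20%, with a background of 36.8%), of which 2 were higher, UBE2D3 (0.23, DESeq2 adjusted p 0.0351) and UBE2D2 (0.22, DESeq2 adjusted p 0.0225), and 1 was lower, CAND1 (-0.14, DESeq2 adjusted p 0.0505), which exchanges cullin substrate receptors. The median log2 fold changes were 0.06 and 0.01. The counts rested on single libraries, since 1 gene was called under shARNT without shARNT replicate 3, and 1 under shBMAL1 without shControl replicate 2. CUL2, the scaffold of this ligase, was at 0.08 and -0.16 and was not called in either. In the direct comparison 3 ligase genes were lower in shBMAL1 and 1 higher (26.7% called, with a background of 35.3%), and the number called was 1 without shARNT replicate 3 and 2 without shBMAL1 replicate 3.

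A list of 40 other regulators of HIF alpha held chaperones, ubiquitin ligases, deubiquitinases, hydroxylase partners and coactivators. Under shARNT 36 were tested, 9 were lower and 11 higher, so that 55.6% were called where 35.4% of all tested genes were (19% lower and 16.5% higher). Among called genes whose mean reached 100 normalised read counts, the most lowered were ZFP36 (-0.54, DESeq2 adjusted p 9.64e-10), which encodes an mRNA-decay factor, LIMD1 (-0.54, DESeq2 adjusted p 5.95e-06), a scaffold that joins PHD enzymes to VHL, and SIAH2 (-0.35, DESeq2 adjusted p 0.000352), a ligase that targets PHD enzymes. The most raised were the histone demethylase gene KDM3A (0.53, DESeq2 adjusted p 1.32e-12), the ubiquitin ligase gene FBXW7 (0.50, DESeq2 adjusted p 0.00221) and the coactivator gene NCOA2 (0.47, DESeq2 adjusted p 1.85e-08). EAF2, with a mean of 67.8 normalised read counts, was called at 0.63 (DESeq2 adjusted p 0.0703). The number called fell to 13 without shControl replicate 1 and to 12 without shARNT replicate 3.

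Under shBMAL1 37 of these regulators were tested, 10 were lower and 8 higher, or 48.6% called with a background of 36.8% (19.4% lower and 17.4% higher). CDK8 (-0.56, DESeq2 adjusted p 1.43e-07), which encodes a Mediator kinase, NAA10 (-0.49, DESeq2 adjusted p 4.04e-09), an acetyltransferase, and SIAH2 (-0.47, DESeq2 adjusted p 3.55e-05) led the lowered genes whose mean reached 100 normalised read counts. KDM3A (0.62, DESeq2 adjusted p 5.8e-15), P4HTM (0.58, DESeq2 adjusted p 5.22e-09), a transmembrane prolyl hydroxylase, and ING4 (0.53, DESeq2 adjusted p 1.42e-08), a reported HIF repressor, led the raised ones. The list medians were 0.02 under shARNT and -0.03 under shBMAL1, near those of all genes. In the direct comparison 9 of 37 were lower in shBMAL1 and 6 higher, or 40.5% called with a background of 35.3%. HIF3A, the third alpha subunit gene, was at 0 in all libraries.

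**Figure D4:**
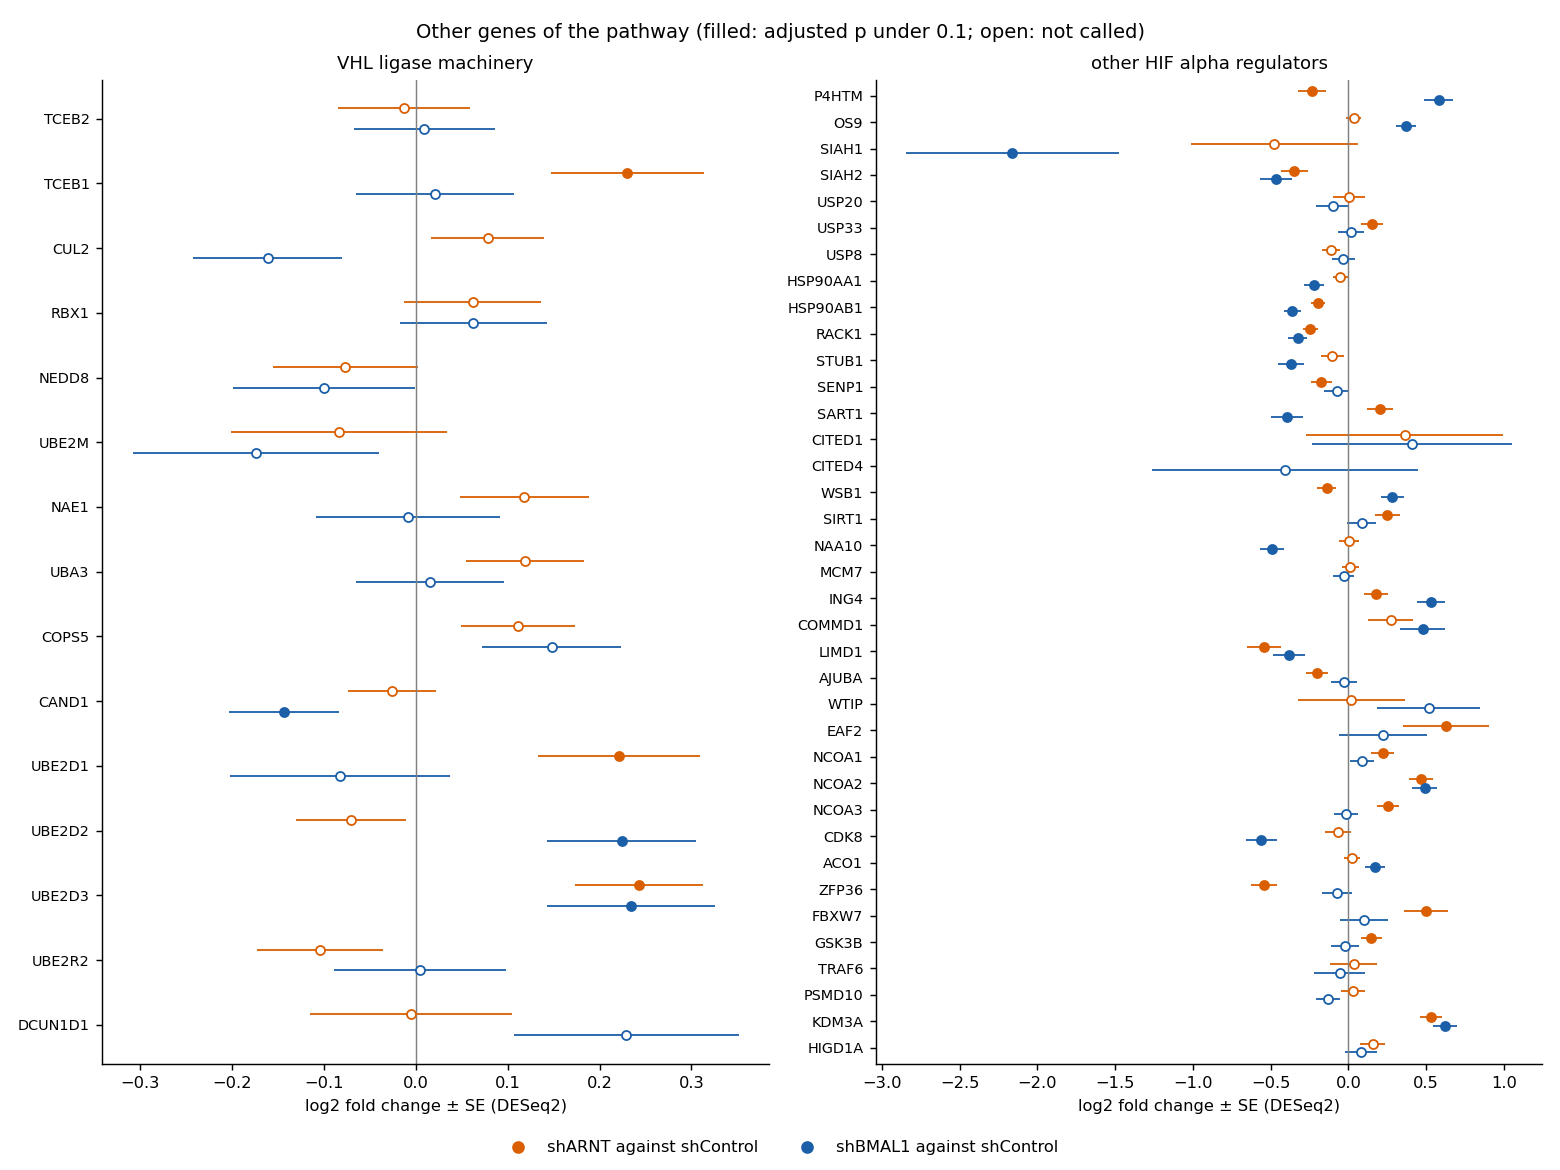
Log2 fold changes (horizontal axes) with their SE under shARNT (orange) and shBMAL1 (blue) against shControl for the tested genes of the VHL ligase list and of the list of other HIF alpha regulators; filled points have a DESeq2 adjusted p under 0.1. Most ligase genes are not called and stay within 0.25 of 0, while KDM3A is raised by 0.53 and 0.62 and P4HTM is at -0.23 and 0.58. SIAH1, at -2.16 under shBMAL1, had a mean of only 15.4 normalised read counts.

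The genes most like the 3 members that changed by at least 1.5-fold were sought among 11806 genes by the root mean square difference of centred log2 counts over the 9 libraries. Nearest to EGLN3 were GOLT1A at 0.102, TSPAN2 at 0.103 and MAP7D2 at 0.156. DHRS13 at 0.0543, SEMA3F at 0.0632 and PRCP at 0.068 were nearest to CITED2. For HIF1A they were SP140L at 0.0489, PLEKHA5 at 0.0491 and GGCX at 0.0503.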

How the data were processed

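The authors deposited estimated counts, linear read totals for each gene, in which 0.009 stood for 0 (46.3% of values, set to 0). Stranded mRNA libraries are named in the labels. The methods of the study name alignment to GRCh37 with SeqMan NGen and counting in ArrayStar, whereas the submitters' processing notes name STAR, hg38 and DESeq2, and the difference was not resolved. Gene annotation and strand setting of the counting were not given in the sources used here. Fractional numbers (6.14% of the remaining values, none in the members) were rounded. Rows of one name (53) were added together, and 28 rows whose symbol had become a date were kept but not named. Groups came from the sample titles.

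Pairs of groups were fitted in DESeq2 version 1.42.0 (R 4.3.3) by the Wald test on median-of-ratios scaled counts, with Benjamini-Hochberg adjustment over all tested genes. A gene was called at an adjusted p under 0.1, as in the study, and all p values are two-sided. Scripts were tested on simulated data. Shares used canonical GENCODE transcripts lifted to GRCh37, and shares were compared by exact permutation tests in scipy 1.17.1. Library totals of 33793045 to 35444735 reads leave counting error small for all members except the near-empty EGLN2 row. Promoter windows came from RefSeq on GRCh38.p14 and were not combined with GRCh37 coordinates.

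The members and lists were chosen with earlier results of these data known. One marker of the lists is not reported here. Named genes were all members, the 3 most lowered and 3 most raised called genes of each list whose mean reached 100 normalised counts, overlapping genes, the targeted genes, and the 3 genes most like each member called with at least a 1.5-fold change. Likeness was computed on log2(normalised count + 1). Alternatives were edgeR 4.0.16 with TMM, DESeq2 with TMM size factors, a minimum of 10 counts in 3 or more libraries, a threshold of 0.05, a 1.5-fold minimum, one fit of 9 libraries, a replicate block and leaving out each library. Correction for GC content (loess span 0.3) and the RAB4B-EGLN2 row were chosen after seeing the data.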

Additional observations from a re-analysis of the deposited data

Results flagged for a closer look

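EGLN3 and CITED2 drew attention because both were called in opposite directions by the knockdowns, lower under shARNT and higher under shBMAL1, and because the difference itself passed a test. The share of all tested genes called in this way was not counted, so the pattern is not shown to be particular to them. The genes most like EGLN3 had the same signs, GOLT1A at -1.18 and 0.62, TSPAN2 at -1.14 and 0.70 and MAP7D2 at -0.79 and 0.61. So had those most like CITED2. In the direct comparison of shBMAL1 with shARNT, EGLN3 differed by 1.66 on the log2 scale (SE 0.07, DESeq2 adjusted p 1.9e-111) and CITED2 by 0.90 (SE 0.07, DESeq2 adjusted p 4e-35). All 3 shBMAL1 libraries lay above all 3 shARNT libraries for both genes. A call in the direct comparison was part of the rule that flagged these genes, so it and this order are not separate evidence. For CITED2 the fall under shARNT was small (-0.17) and was no longer called without shControl replicate 3 or shARNT replicate 3, whereas EGLN3 kept both directions under every alternative tried and missed a call only where at least a 1.5-fold change was required under shBMAL1.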

How the results depend on the processing

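Of 378 member fold changes recomputed under 14 alternatives per comparison, 353 kept their direction and side of the threshold, 13 lost a call, 3 gained one and 9 changed sign, all of the last in genes that were not called. EP300 under shARNT was at -0.0054 with TMM size factors and ran from -0.024 to 0.046 without 1 library. VHL under shARNT ran from -0.13 to 0.025 without 1 library (0.025 without shControl replicate 2). EGLN1 ran from -0.020 to 0.11 under shBMAL1 (lowest without shBMAL1 replicate 3) and from -0.051 to 0.078 in the direct comparison (lowest without shBMAL1 replicate 3). The RAB4B-EGLN2 difference under shARNT was 0.031 with GC correction and ran from -0.060 to 0.0064 without 1 library. Requiring 1.5-fold left 1200 of 5374 genes called under shARNT, 2606 of 7005 under shBMAL1 and 2064 of 6409 in the direct comparison. It left 1, 2 and 2 members, 0 ligase genes in each, and 1, 2 and 3 other regulators. The ligase count under shBMAL1 was 5 with edgeR and with one fit of 9 libraries. Leaving out single libraries gave 1 to 3 ligase genes under shARNT, 1 to 4 under shBMAL1 and 1 to 5 in the direct comparison, 12 to 17 other regulators under shARNT, and 4 to 5, 3 and 4 to 5 members. The EGLN3 share differed by -9.63, 2.94 and 12.6 points without length scaling, and by -18.0, 14.6 and 32.6 with the RAB4B-EGLN2 row. The difference between knockdowns ran from -1.14 to 0.192 points for the EPAS1 share and from -0.279 to 1.36 for the EP300 share without 1 library. The cause of these shifts was not tested. The EGLN2 row was too low to test, the reads of its locus being listed under RAB4B-EGLN2.

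Same-numbered libraries of different groups did not deviate together (correlations -0.154 to 0.105) and not every library correlated best with its own number. The main fits did not pair the samples. Deviations from means of 3 libraries cannot show whether same-numbered libraries were prepared together. With the replicate block, 4150, 5742 and 5388 genes were called in shARNT, shBMAL1 and the direct comparison, and 5, 3 and 5 members.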

Other observations

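Some rows beside the members also moved, and were chosen after their values were seen. Among neighbours of other members, IRAK2 (-0.92), SEC31B (0.87) and ADCY9 (-0.74) also changed under shBMAL1, and many neighbours were not called. The share of neighbours called was not set against that of all tested genes. FLJ22447, a non-coding transcript listed next to HIF1A-AS1 in the table, gave 273, 230 and 230 normalised read counts in shControl, 463, 434 and 450 in shARNT and 990, 1180 and 1157 in shBMAL1. Its groups did not overlap, and its log2 fold changes were 0.88 under shARNT and 2.18 under shBMAL1, above those of HIF1A. TSNAX, 106 kb from EGLN1, changed by 0.21 under shARNT (DESeq2 adjusted p 0.0131) and by -0.82 under shBMAL1 (DESeq2 adjusted p 1.23e-16), and EGLN1 was not called in either. SPRTN (0.15 and 0.02) and EXOC8 (0.01 and -0.24), which lie nearer on the other side of EGLN1, were not called in either knockdown. EAPP, a neighbour of EGLN3, rose by 0.28 under shARNT (DESeq2 adjusted p 0.0622), where EGLN3 fell, and by 0.74 under shBMAL1 (DESeq2 adjusted p 1.48e-09). It lay 53.2 kb from the full annotated span of EGLN3, which is wider than the canonical transcript given above and overlaps SPTSSA. SPTSSA was at -0.10 under shARNT and -0.01 under shBMAL1 and was not called in either.

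Among the other regulators of HIF alpha, P4HTM gave 858, 865 and 848 normalised read counts in shControl, 765, 738 and 677 in shARNT and 1391, 1168 and 1289 in shBMAL1. Its groups did not overlap, with shARNT lowest and shBMAL1 highest, as for EGLN3 and CITED2, and the direct comparison gave 0.82 (DESeq2 adjusted p 1.11e-15). WSB1, a ubiquitin ligase subunit, was also called lower under shARNT (-0.14, DESeq2 adjusted p 0.0748) and higher under shBMAL1 (0.28, DESeq2 adjusted p 0.000611), with a direct difference of 0.43 (DESeq2 adjusted p 1.69e-08). SART1 was called in the opposite way, higher under shARNT (0.20) and lower under shBMAL1 (-0.39), with a direct difference of -0.59 (DESeq2 adjusted p 2.06e-08).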
